A study of Mus musculus with 4 samples.

Results

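The data below cover 38 cell cycle and DNA replication genes, measured in mouse uteri on day 4 of pseudopregnancy in 2 compartments, the luminal epithelium that lines the cavity and the stroma under it. The members were taken by name and not by their values, but with earlier results of these data known. All 38 were found in both deposited tables of 23235 genes. They fall into 18 genes of mitosis, 11 of DNA replication and nucleotide supply, 6 of the G1 to S step and 3 inhibitors of cyclin-dependent kinases. By their median ratio, the mitosis members were 8.76-fold lower in luminal epithelium than in stroma in the libraries labelled knockout and 10.3-fold lower in the controls, and Top2a differed least of them. Replication members were lower by less, with Tyms higher in epithelium. The 3 inhibitors showed no common difference between compartments as deposited. Under the knockout label all 3 were lower in epithelium with each of 3 other scalings of the levels. Between genotype labels, 1 member in luminal epithelium (Cdkn1c) and none in stroma differed by at least 2-fold on the log2(RPKM + 1) scale. Over all 23235 genes 0.813% were that much lower and 1.82% higher in epithelium labelled knockout. In stroma labelled knockout the shares were 0.547% lower and 0.499% higher, so the member counts lie near the background. On that scale a gene under 1 RPKM in both libraries cannot reach 2-fold, which held for 17 of 18 mitosis members in epithelium. By ratio of RPKM, Cdkn1a, Ccnd2 and Ccne1 were 5.64-fold, 2.25-fold and 2.18-fold higher in stroma labelled knockout, and the lowest ratio was 0.610 (Cdkn1c).

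There were 4 libraries, 1 per group. The luminal epithelium labelled knockout and the stroma labelled knockout came from a uterus with the genotype Msx1d/d/Msx2d/d, described as a knockout limited to the uterus. The luminal epithelium control and the stroma control came from the floxed genotype Msx1f/f/Msx2f/f. Females of both genotypes were mated with vasectomized males, and cells were isolated by laser capture microdissection. The series describes 1 mouse of each genotype. The age of the mice, the Cre driver and the deleted exons are not given in the sources used here. No value below has a replicate, so no difference could be tested against variation between mice, and higher and lower describe these libraries alone.

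Levels are RPKM as the authors deposited them, that is, reads per kilobase of transcript and per unit of sequencing depth. Each compartment had a table of its own, so every comparison of epithelium with stroma sets levels across tables made separately. Estimated depth was 90.7 M and 6.3 M reads in luminal epithelium labelled knockout and control, and 62.4 M and 42.7 M in stroma labelled knockout and control. A single read on 1 kb of transcript was therefore worth 0.157 RPKM in the luminal epithelium control but 0.0110 to 0.0234 RPKM elsewhere. Limits given after a ratio are approximate 95% counting limits from estimated reads. They cover counting error only, since amplified reads are not independent molecules. A listed 0 is not read as absence, because both controls list 0 for the ribosomal protein gene Rpl26 (picked with its values in view). In luminal epithelium Msx1 had 13.6 RPKM in the library labelled knockout and 23.2 RPKM in the control. Msx2 had 2.06 RPKM in the library labelled knockout and 1.31 RPKM in the control, against the label. In stroma both genes were at or under 0.135 RPKM, so the label could not be checked there. Libraries are for this reason called labelled knockout throughout.

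Marker genes placed each capture in its compartment. All 10 epithelial markers were at least 2-fold higher in luminal epithelium than in stroma under both genotype labels, and all 12 stromal markers were at least 2-fold lower. The summed level of the stromal markers was 5.96 and 14.5 RPKM in luminal epithelium labelled knockout and control, against 577 and 394 RPKM in stroma labelled knockout and control. Of the 10 endothelial markers, Emcn and Cldn5 were listed at 0 in both epithelial libraries and Kdr, Tek and Esam in the epithelial control as well, and the summed level was 0.317 and 0.361 RPKM in epithelium against 40.4 and 43.7 RPKM in stroma. The 12 leukocyte markers summed to 3.44 and 20.05 RPKM in epithelium labelled knockout and control, and to 58.6 and 129 RPKM in stroma labelled knockout and control. The stromal captures thus also held RNA of vessel and leukocyte genes, and its part in the stromal levels below was not tested. In such bulk captures, fewer cycling cells and less RNA per cycling cell cannot be told apart.

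A dividing cell passes through G1, copies its DNA in S phase and separates the copies in mitosis. D-type and E-type cyclins with their kinases release E2F factors at the G1 to S step, E2F factors drive replication genes, and genes of mitosis follow late in the cycle, while Cdkn1 proteins hold the kinases in check. In the mouse uterus before implantation, estrogen drives division of the luminal epithelium early, and progesterone then stops it and turns proliferation to the stroma by day 4. Msx1 and Msx2 are homeobox transcription factors of the uterine epithelium with a known role in its receptivity to the embryo.

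Genes of mitosis were low in luminal epithelium and well detected in stroma. Mki67, the nuclear protein used as the common marker of cycling cells (mm9 chr7:142881471-142908062), had 0.412 and 0.470 RPKM in luminal epithelium labelled knockout and control, against 6.26 and 6.75 RPKM in stroma labelled knockout and control. Both epithelial values lay far under both stromal values. The ratio of epithelium to stroma was 0.0657 (limits 0.0589 to 0.0731) in the libraries labelled knockout and 0.0696 (0.0458 to 0.0987) in the controls, or 15.2-fold and 14.4-fold lower. Of the 18 mitosis members, 17 had both epithelial levels under both stromal levels and 17 were under 1 RPKM in each epithelial library, while none was under 1 RPKM in either stromal library. The share of all genes with both epithelial levels under both stromal levels was not taken, here or for the other groups of members below. On the log2(RPKM + 1) scale, 13 of the 18 were at least 2-fold lower in epithelium than in stroma under the knockout label and 16 under the control label. Over all 23235 genes without a minimum level, the shares at least 2-fold lower were 5.28% and 5.73%. Where the pair of libraries was required to average 1 RPKM or more, 13 of 14 mitosis members were at least 2-fold lower under each label, against 10.7% of all kept genes under the knockout label and 12.1% under the control label. A member kept by that minimum mostly through its stromal level had to be lower in epithelium, so the count over all 18 is the fairer one.

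The cyclins of mitosis and their kinase were all lower in epithelium. Ccna2, cyclin A2, which acts from S phase into mitosis, had 0.536 and 0.847 RPKM in luminal epithelium labelled knockout and control, against 5.25 and 5.36 RPKM in stroma labelled knockout and control. Ccnb1, cyclin B1, which brings the cell into mitosis with Cdk1, had 0.336 and 0.231 RPKM in epithelium and 3.0 and 3.17 RPKM in stroma, in the same order. Ccnb2, its close relative, had 0.399 and 0.215 RPKM in epithelium and 3.76 and 4.00 RPKM in stroma. Stromal levels were 6.32 to 18.6 times the epithelial ones over these 3 cyclins and both labels, and the epithelial and stromal values did not overlap. Cdk1 itself, the kinase of mitotic entry, had 0.306 and 0.186 RPKM in epithelium and 2.49 and 2.39 RPKM in stroma. In the epithelial control these low values rested on few reads, an estimated 1.82 for Ccnb2 and 4.92 for Cdk1, so the counting limits of its ratios are wide (0.00714 to 0.217 for Ccnb2 against stroma).

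Kinases of the spindle and its checkpoint were as low. Aurkb, the kinase of the chromosomal passenger complex, had 0.123 and 0.428 RPKM in luminal epithelium labelled knockout and control, against 2.86 and 2.45 RPKM in stroma labelled knockout and control. Birc5, survivin, a subunit of that complex, had 0.492 and 0.199 RPKM in epithelium and 4.22 and 4.47 RPKM in stroma. Bub1b, a kinase-like protein of the spindle checkpoint, had 0.176 and 0.0402 RPKM in epithelium and 2.53 and 2.84 RPKM in stroma. For each of these 3 genes the epithelial levels lay under the stromal ones, while the order of the genotype labels within epithelium differed from gene to gene. Plk1, a kinase that acts throughout mitosis, had 0.331 RPKM in epithelium labelled knockout, was listed at 0 in epithelium control, and had 1.51 and 1.89 RPKM in stroma. Cdc20, which activates the ubiquitin ligase that ends metaphase, had 0.594 and 0.284 RPKM in epithelium and 3.72 and 5.08 RPKM in stroma. The remaining members were Aurka, the kinase of the spindle poles, and its activator Tpx2, the checkpoint kinase Bub1, the centromeric histone variant Cenpa, and the motor proteins Cenpe, Kif11 and Kif20a. In each of these 7 the epithelial levels were below the stromal ones, with ratios from 0.0448 for Cenpa under the control label to 0.219 for Kif20a under the same label. The Cenpa ratio rested on an estimated 1.18 reads in the epithelial control, with limits of 0.000957 to 0.215. Bub1b had an estimated 0.886 reads there.

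Top2a, the topoisomerase that untangles DNA at replication and mitosis and is otherwise a marker of cycling cells (mm9 chr11:98854261-98885503), differed less between compartments than the other 17. It had 8.71 and 4.67 RPKM in luminal epithelium labelled knockout and control, against 8.33 and 8.87 RPKM in stroma labelled knockout and control. The epithelial library labelled knockout lay between both stromal libraries, and the epithelial control lay below them. Epithelium to stroma, the ratio was 1.05 (0.995 to 1.10) under the knockout label and 0.527 (0.443 to 0.623) under the control label. The direction under the knockout label depended on scaling: a log2 difference of 0.06 as deposited became -0.52 with upper quartiles set equal, -0.30 with sums taken without the 50 most abundant genes and -0.26 with the median of all kept genes set to 0. Under the control label the difference was -0.80 as deposited and -1.33, -1.01 and -1.09 under these scalings, so that Top2a was then at least 2-fold lower in epithelium. Top2a supplied 61.8% and 50.8% of the summed RPKM of the 18 mitosis members in epithelium labelled knockout and control, against 14.3% and 14.2% in stroma labelled knockout and control. The ratio of Top2a to Mki67 was 21.2 and 9.94 in epithelium labelled knockout and control, against 1.33 and 1.31 in stroma labelled knockout and control. In the epithelial libraries the other 17 mitosis members ranged up to 0.594 RPKM under the knockout label and up to 0.847 RPKM under the control label, so Top2a stood far above all of them. Without Top2a, a choice made after its values were seen, the 17 members summed to 5.38 and 4.53 RPKM in epithelium labelled knockout and control, against 49.8 and 53.5 RPKM in stroma labelled knockout and control.

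**Figure D1:**
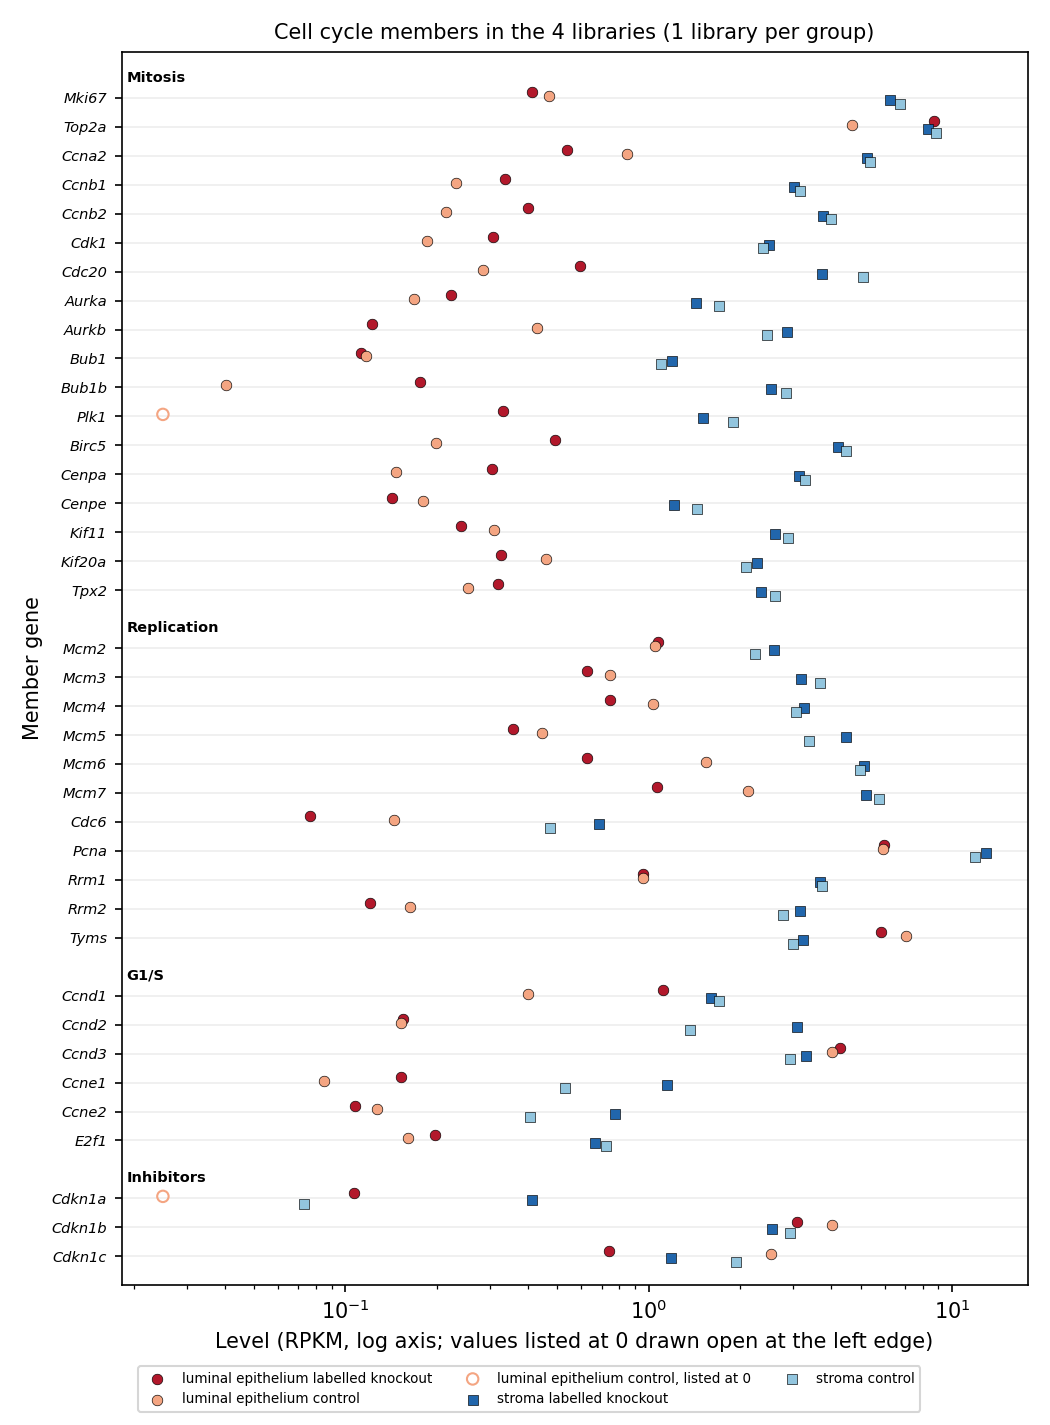
Level of each member in each library, in RPKM on a logarithmic axis, with members grouped by role and 1 symbol per library (open marks at the left edge are values listed at 0). The 17 mitosis members other than Top2a sit under 1 RPKM in both epithelial libraries and above 1 RPKM in both stromal ones, while Top2a, Tyms, Ccnd3 and Cdkn1b do not separate in that way.

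Promoters of mitosis genes are known to carry CCAAT boxes, bound by the factor NF-Y, and a short element that ties their transcription to late cell cycle stages, written here as TTTGAA. RefSeq promoters on build GRCm38.p6, from 250 bases before to 50 bases after the transcript start, were matched for 14 of the 18 mitosis members. CCAAT on either strand was present in 13 of the 14, against 37.4% of all 32851 promoters of that length, and TTTGAA on either strand in 10 of the 14, against 17.9% of all promoters. A match is a description of letters, not a bound site. The promoters of Ccnb2 and Top2a are shown because both hold several copies of both motifs, although the levels of these genes in epithelium differed so much. They run 5′ to 3′ on the strand of the gene, chr9:70421505-70421804 (minus strand) for Ccnb2 and chr11:99024140-99024439 (minus strand) for Top2a, with CCAAT or its reverse complement ATTGG and TTTGAA or its reverse complement TTCAAA in capitals.
Ccnb2: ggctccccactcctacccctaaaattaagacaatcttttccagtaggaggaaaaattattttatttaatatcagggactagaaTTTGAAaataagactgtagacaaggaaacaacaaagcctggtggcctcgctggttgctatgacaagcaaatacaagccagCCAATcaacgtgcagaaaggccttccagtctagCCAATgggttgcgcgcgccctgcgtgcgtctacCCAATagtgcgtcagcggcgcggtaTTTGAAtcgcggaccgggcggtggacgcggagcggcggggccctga
Top2a: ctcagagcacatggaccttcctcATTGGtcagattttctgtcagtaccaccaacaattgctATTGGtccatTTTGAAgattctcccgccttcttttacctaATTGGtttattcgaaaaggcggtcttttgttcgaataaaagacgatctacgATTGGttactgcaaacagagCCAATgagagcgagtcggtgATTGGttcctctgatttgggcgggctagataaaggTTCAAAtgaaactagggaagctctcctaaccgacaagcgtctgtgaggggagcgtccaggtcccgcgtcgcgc
The Ccnb2 promoter holds 3 CCAAT and 2 TTTGAA matches, and that of Top2a holds 6 and 2.

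Genes of DNA replication were lower in epithelium too, but by less and with larger differences among themselves. Of the 11 replication members, 10 had both epithelial levels under both stromal levels. On the log2(RPKM + 1) scale, 8 of the 11 were at least 2-fold lower in epithelium under the knockout label, and 7 under the control label, against 5.28% and 5.73% of all genes. Their median ratio of epithelium to stroma made them 4.90-fold lower in the libraries labelled knockout and 3.21-fold lower in the controls, against 8.76-fold and 10.3-fold for the mitosis members (for 17 of them in the controls, where Plk1 was listed at 0). The median level of the replication members was 0.744 and 1.03 RPKM in luminal epithelium labelled knockout and control, against 3.25 and 3.38 RPKM in stroma labelled knockout and control. Within each library it was 1.97 and 4.45 times the median of the 17 mitosis members in epithelium labelled knockout and control, and 1.25 and 1.19 times in stroma labelled knockout and control.

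Mcm2 to Mcm7 form the ring-shaped helicase that opens the DNA ahead of the replication fork, and Cdc6 helps to load it. Mcm5 had 0.356 and 0.446 RPKM in luminal epithelium labelled knockout and control, against 4.47 and 3.38 RPKM in stroma labelled knockout and control, the widest gap of the 6 subunits at 12.6-fold and 7.59-fold. Mcm2 had the narrowest, with 1.08 and 1.05 RPKM in epithelium and 2.58 and 2.24 RPKM in stroma, 2.40-fold and 2.13-fold lower. Although the 6 subunits work in one complex, their epithelial levels thus did not keep the proportions they had in stroma. Mcm3 had 0.628 and 0.748 RPKM in epithelium and 3.17 and 3.68 RPKM in stroma. Mcm4 had 0.744 and 1.03 RPKM in epithelium and 3.25 and 3.06 RPKM in stroma. Cdc6 was low in every library, with 0.0763 and 0.144 RPKM in epithelium and 0.686 and 0.474 RPKM in stroma, and lay under 1 RPKM in stroma as no other replication member did.

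Mcm6 and Mcm7 were the subunits whose epithelial levels differed most between genotype labels. Mcm6 had 0.627 and 1.55 RPKM in luminal epithelium labelled knockout and control, against 5.12 and 4.96 RPKM in stroma labelled knockout and control. Mcm7, whose locus holds the microRNA genes Mir106b, Mir93 and Mir25, had 1.06 and 2.13 RPKM in epithelium and 5.20 and 5.74 RPKM in stroma. For both genes the epithelial library labelled knockout was farther from stroma than the epithelial control was, 8.16-fold against 3.21-fold lower for Mcm6 and 4.90-fold against 2.70-fold lower for Mcm7.

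The genes of nucleotide supply split. Rrm1 and Rrm2 encode the large and the small subunit of ribonucleotide reductase, which makes deoxynucleotides, and the small subunit is the one known to be limited to S phase. Rrm2 had 0.120 and 0.164 RPKM in luminal epithelium labelled knockout and control, against 3.15 and 2.78 RPKM in stroma labelled knockout and control. Rrm1 had 0.960 and 0.958 RPKM in epithelium and 3.67 and 3.72 RPKM in stroma. Rrm2 was thus 26.2-fold and 17.0-fold lower in epithelium, but Rrm1 3.82-fold and 3.88-fold lower. In the epithelial control Rrm2 rested on an estimated 2.07 reads, with limits of 4.82-fold to 146-fold lower than stroma. Tyms, thymidylate synthase, which makes the thymidine nucleotide of DNA (mm9 chr5:30384740-30400165), was the exception, with 5.85 and 7.05 RPKM in epithelium labelled knockout and control, against 3.23 and 2.99 RPKM in stroma labelled knockout and control. Both epithelial values lay above both stromal ones, with a ratio of 1.81 (1.65 to 1.99) under the knockout label and 2.36 (1.92 to 2.88) under the control label. The difference kept its direction under all 3 other scalings tried. The ratio of Tyms to Rrm2 was 48.6 and 43.0 in epithelium labelled knockout and control, against 1.03 and 1.07 in stroma labelled knockout and control. The 43.0 rests on the same few Rrm2 reads. Pcna, the sliding clamp of DNA polymerases, which also serves in DNA repair, had 5.98 and 5.91 RPKM in epithelium and 13.0 and 12.0 RPKM in stroma, the highest stromal level of all 38 members and only about 2-fold above epithelium (2.17-fold and 2.02-fold).

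E2F factors bind forms of the sequence TTTCCCGC, TTTCGCGC, TTTGCCGC or TTTGGCGC in promoters of replication genes. Promoters were matched for 10 of the 11 replication members, with 11 promoters in all, and 5 of the 11 held at least 1 of these 4 forms on either strand, against 2.26% of all promoters and 1 of 14 mitosis promoters. CCAAT was present in 9 of the 11 and TTTGAA in 1. The promoters of Mcm5 and Mcm6 are shown as helicase subunits that were far lower in epithelium and that carry E2F forms. That of Tyms is shown as the replication gene that was higher in epithelium. The windows of Mcm2, Pcna, Rrm1 and Rrm2, which were lower in epithelium, likewise hold no E2F form. They are read 5′ to 3′ on the strand of the gene on GRCm38.p6, chr8:75109259-75109558 (plus strand) for Mcm5, chr1:128359656-128359955 (minus strand) for Mcm6 and chr5:30073576-30073875 (minus strand) for Tyms, with E2F forms and CCAAT, or their reverse complements, in capitals.
Mcm5: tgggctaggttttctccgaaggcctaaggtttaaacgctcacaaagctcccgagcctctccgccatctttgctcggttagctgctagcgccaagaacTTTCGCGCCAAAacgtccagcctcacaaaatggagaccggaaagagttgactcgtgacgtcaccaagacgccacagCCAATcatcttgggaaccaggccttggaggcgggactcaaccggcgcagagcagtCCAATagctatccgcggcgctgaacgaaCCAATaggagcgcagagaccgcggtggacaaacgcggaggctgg
Mcm6: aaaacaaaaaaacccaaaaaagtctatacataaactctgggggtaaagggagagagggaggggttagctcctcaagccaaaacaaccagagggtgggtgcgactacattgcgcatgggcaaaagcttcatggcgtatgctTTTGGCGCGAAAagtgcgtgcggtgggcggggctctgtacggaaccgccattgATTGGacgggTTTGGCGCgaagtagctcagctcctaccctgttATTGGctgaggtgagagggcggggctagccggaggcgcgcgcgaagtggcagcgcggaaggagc
Tyms: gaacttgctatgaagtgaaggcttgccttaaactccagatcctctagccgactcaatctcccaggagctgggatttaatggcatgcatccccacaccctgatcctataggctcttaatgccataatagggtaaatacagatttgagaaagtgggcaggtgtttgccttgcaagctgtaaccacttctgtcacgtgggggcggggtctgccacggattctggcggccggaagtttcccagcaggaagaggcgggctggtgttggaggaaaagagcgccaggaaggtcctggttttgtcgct
Mcm5 holds 3 CCAAT and 2 E2F matches, which overlap on opposite strands in the run TTTCGCGCCAAA. Mcm6 holds 2 CCAAT and 3 E2F matches, of which 2 overlap on opposite strands in TTTGGCGCGAAA. The Tyms window holds none of the searched letters, which says nothing of the factors themselves.

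Of the 6 members of the G1 to S step, 5 had both epithelial levels under both stromal levels, and the exception was Ccnd3. Ccnd3, cyclin D3, had 4.27 and 4.04 RPKM in luminal epithelium labelled knockout and control, against 3.31 and 2.92 RPKM in stroma labelled knockout and control. Both epithelial levels were the higher ones, with a ratio of 1.29 (1.14 to 1.46) under the knockout label and 1.38 (0.997 to 1.89) under the control label, but this direction turned with the upper quartiles set equal under both labels, and with the other 2 scalings under the knockout label. Ccnd2, cyclin D2, had 0.155 and 0.152 RPKM in epithelium and 3.08 and 1.37 RPKM in stroma, 19.9-fold and 8.98-fold lower in epithelium. Ccnd1, cyclin D1, had 1.12 and 0.401 RPKM in epithelium and 1.61 and 1.70 RPKM in stroma, a gap of 1.44-fold and 4.25-fold. The 3 D-type cyclins, which all bind the kinases Cdk4 and Cdk6, thus had 3 different patterns, with cyclin D3 the leading form in epithelium. The E-type cyclins, which start S phase with Cdk2, were low throughout: Ccne1 had 0.153 and 0.0848 RPKM in epithelium and 1.15 and 0.530 RPKM in stroma, and Ccne2 had 0.107 and 0.127 RPKM in epithelium and 0.774 and 0.406 RPKM in stroma. E2f1, a transcription factor of S phase genes, had 0.197 and 0.161 RPKM in epithelium and 0.665 and 0.724 RPKM in stroma. At 2-fold on the log2(RPKM + 1) scale, 1 of the 6 was lower in epithelium under each label, Ccnd2, against 5.28% and 5.73% of all genes.

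As deposited, the 3 inhibitors were not all lower in epithelium, and none of them had both epithelial levels under both stromal levels. Under the knockout label 2 were lower and 1 higher as deposited. All 3 were lower there under each of the 3 other scalings, with median log2 differences of -0.57, -0.48 and -0.64. Under the control label 2 were higher and 1 lower as deposited, and all 3 were lower with upper quartiles set equal. The other 2 scalings left them split under that label. Cdkn1b, p27, had 3.08 and 4.02 RPKM in luminal epithelium labelled knockout and control, against 2.55 and 2.93 RPKM in stroma labelled knockout and control. Its ratio of epithelium to stroma was 1.21 (1.06 to 1.38) under the knockout label and 1.37 (1.01 to 1.83) under the control label, and the upper quartile scaling turned the direction under both labels while the other 2 scalings turned it under the knockout label alone. Cdkn1c, p57 (mm9 chr7:150644244-150646955), an imprinted gene expressed from the maternal allele, had 0.742 and 2.53 RPKM in epithelium and 1.18 and 1.94 RPKM in stroma. Its epithelial values lay on either side of the stromal ones. Cdkn1a, p21, the p53 target, had 0.106 RPKM in epithelium labelled knockout, was listed at 0 in epithelium control, and had 0.412 and 0.0731 RPKM in stroma. Set against the 17 mitosis members without Top2a, the summed RPKM of the 3 inhibitors was 0.730 and 1.45 times theirs in epithelium labelled knockout and control, against 0.0831 and 0.0925 times in stroma labelled knockout and control.

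Counted over all 38 members, 22 were at least 2-fold lower in epithelium under the knockout label and 24 under the control label, and 0 and 1 were at least 2-fold higher. Over all genes without a minimum level, 5.28% and 5.73% were at least 2-fold lower, and 7.95% and 7.31% at least 2-fold higher. The 1 higher member was Tyms, and it no longer reached 2-fold under any of the 3 other scalings. The median log2 difference of the 38 members was -1.29 under the knockout label and -1.16 under the control label. Genes that averaged 1 RPKM or more in the pair (kept genes) had medians of 0.32 and 0.29 under the same labels, with 20.7% and 19.6% of kept genes at least 2-fold higher in epithelium. Ranked within each library over all 23235 genes, the mitosis members had a median percentile of 55.5 and 53.2 in epithelium labelled knockout and control, against 87.2 and 89.0 in stroma labelled knockout and control. The replication members had 63.0 and 68.7 in epithelium, and 89.7 and 91.1 in stroma. These ranks do not depend on how the tables were scaled.

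**Figure D2:**
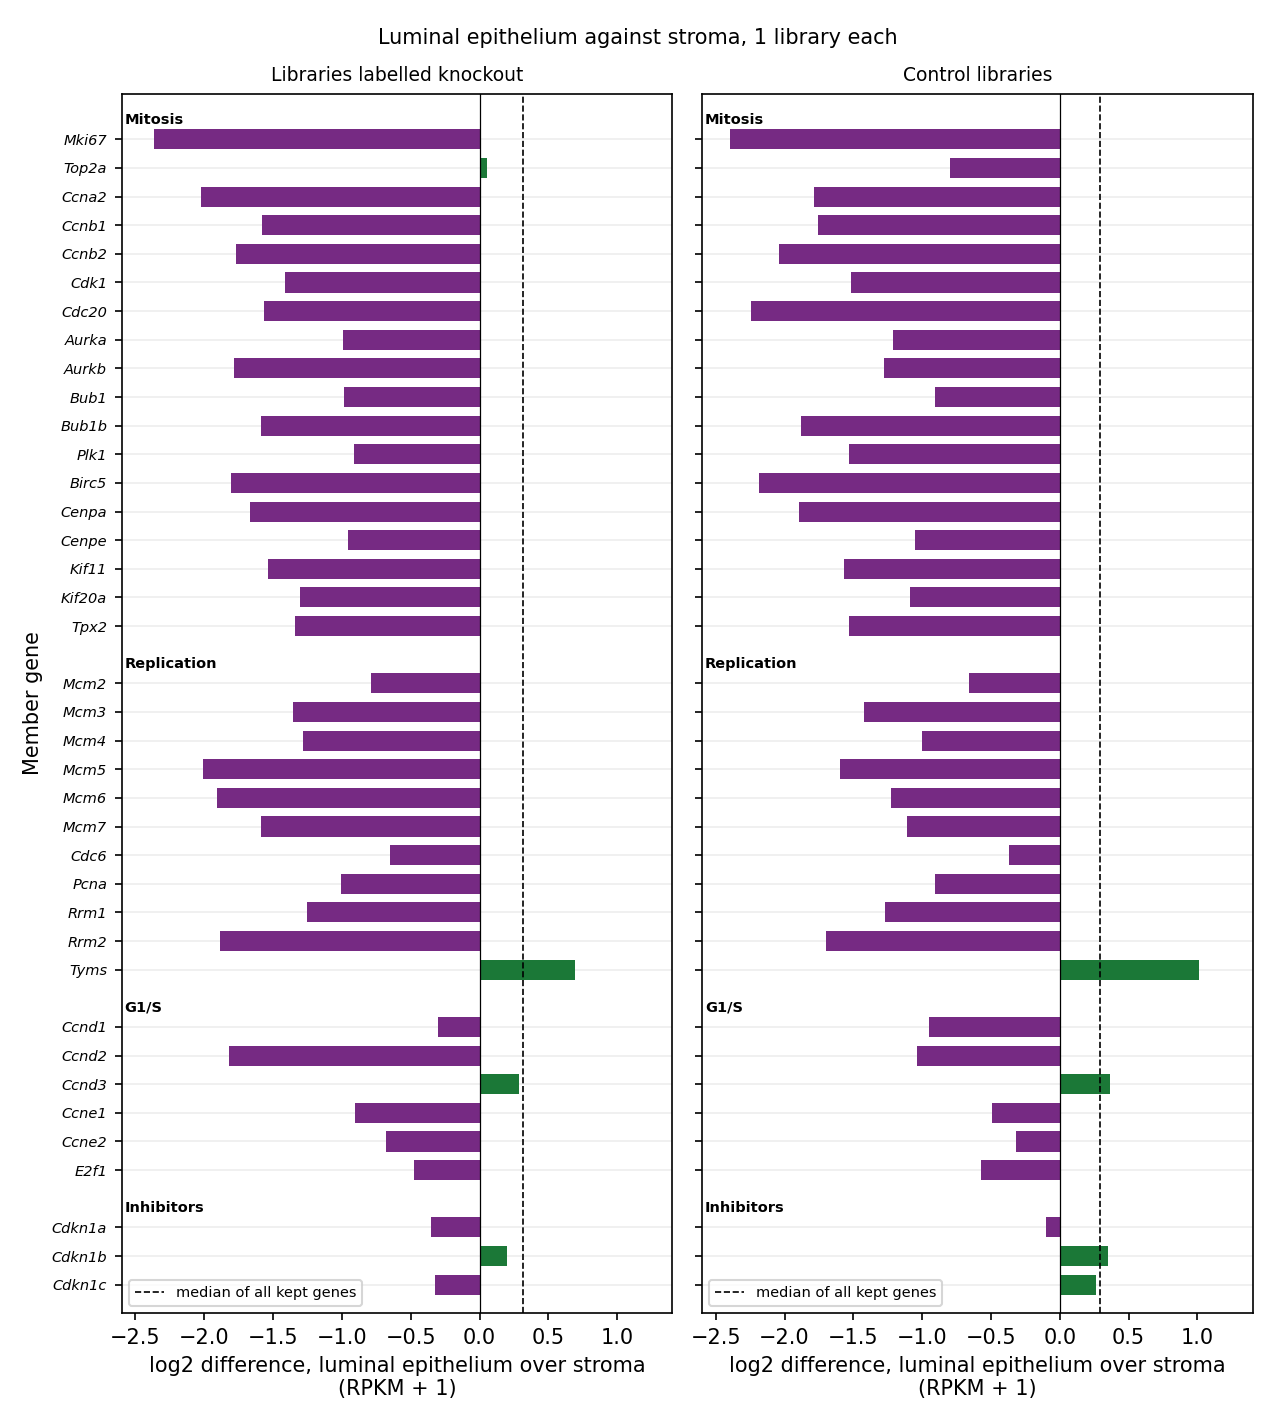
Log2 difference of luminal epithelium from stroma for each member, on the log2(RPKM + 1) scale, for the libraries labelled knockout (left) and for the controls (right), by role, with a dashed line at the median of all kept genes. Mitosis members other than Top2a lie between -0.91 and -2.40 under both labels, Tyms is the highest at 0.70 and 1.01, and the inhibitors lie between -0.35 and 0.35.

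Between genotype labels within luminal epithelium, most members could not be told apart at this depth. Of the 38 members, the counting limits of the ratio of labelled knockout to control left out 1 for 8, with 3 higher and 5 lower. The share of all genes with such limits was not taken, so this count has no background beside it. Cdkn1c had 0.742 RPKM in the library labelled knockout and 2.53 RPKM in the control, and was 3.41-fold lower (2.14 to 5.18). It was also the 1 member at least 2-fold lower on the log2(RPKM + 1) scale, against 1.99% of all kept genes. No member was at least 2-fold higher on that scale, against 5.03% of all kept genes. Members under 1 RPKM in both libraries could not be called on it. Without a minimum level, 0.813% of all genes were at least 2-fold lower and 1.82% at least 2-fold higher. Top2a was 1.86-fold higher (1.58 to 2.21), and Ccnd1 was 2.78-fold higher (1.45 to 6.14), in Ccnd1 from an estimated 9.02 reads in the control. Mcm6 was 2.47-fold lower (1.6 to 3.79), Mcm7 2.01-fold lower (1.37 to 2.81) and Tyms 1.2-fold lower (1.01 to 1.44). These 3 belong to replication, where the other 8 members had limits that included 1. Aurkb was 3.49-fold lower (1.10 to 10.4) from 4.76 estimated reads in the control, and Plk1, listed at 0 in the control, had 0.331 RPKM in the library labelled knockout. Mki67, with a ratio of 0.876 (0.608 to 1.35), did not differ beyond counting error.

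In direction alone, the mitosis members were split between the epithelial libraries and the replication members leaned lower. On the log2(RPKM + 1) scale 11 of the 18 mitosis members were higher and 7 lower in the library labelled knockout, with a median of 0.10. The median was also 0.10 for all kept genes, of which 61.9% were higher, and 0.00 for all genes without a minimum level. The split stayed at 11 and 7 with upper quartiles set equal and without the 50 most abundant genes. With the median of kept genes set to 0 it was 9 and 9. Of the replication members 3 were higher and 8 lower, with a median of -0.09, and all 11 were lower under each of the 3 other scalings. The summed level of the mitosis members was 14.1 RPKM in the library labelled knockout and 9.20 RPKM in the control, of which Top2a made up most of the gap. Beside these values, the summed level of the 12 leukocyte markers was 3.44 RPKM in epithelium labelled knockout and 20.05 RPKM in epithelium control, that of the 12 stromal markers 5.96 and 14.5 RPKM, and that of the 7 smooth muscle markers 0.637 and 5.27 RPKM. All 12 stromal and all 7 smooth muscle markers were lower in the epithelial library labelled knockout, and their part in the member differences was not tested. The 5 gland markers summed to 5.15 RPKM in epithelium labelled knockout and 1.06 RPKM in epithelium control, with Aldh1a1 alone at 4.86 and 0.789 RPKM, Prss29 and Spink3 listed at 0 in both and the gland factor Foxa2 at 0.0312 and 0.0881 RPKM.

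In stroma the deeper libraries allowed closer limits, and the largest ratios were those of Cdkn1a and 3 cyclins. No member was at least 2-fold higher or lower on the log2(RPKM + 1) scale, against 1.45% of all kept genes higher and 1.59% lower, or 0.499% and 0.547% of all genes without a minimum level. Ccnd2 had 3.08 RPKM in the library labelled knockout and 1.37 RPKM in the control, 2.25-fold higher (2.00 to 2.54). Ccne1 was 2.18-fold higher (1.52 to 3.16), and Ccne2 was 1.91-fold higher (1.36 to 2.69). The locus of Ccnd2 overlaps 9330179D12Rik and that of Ccne2 overlaps Ints8, and the use of strand in counting is not given in the sources used here, so reads of such neighbours cannot be told apart. Cdkn1a was 5.64-fold higher (1.87 to 20.7), with 0.412 RPKM in the library labelled knockout and 0.0731 RPKM in the control, or 31.3 and 3.80 estimated reads. Cdkn1c was 1.64-fold lower (1.29 to 2.11), and so it was the lower of its pair in both compartments.

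The mitosis members were slightly lower in stroma labelled knockout. On the log2(RPKM + 1) scale 14 of the 18 were lower and 4 higher than in stroma control. Their median was -0.08, against 0.07 for all kept genes, of which 64.2% were higher. Limits left out 1 for 5 of the 18, all lower, but the share of all genes with such limits was not taken. Cdc20 was 1.37-fold lower (1.18 to 1.59), Cenpe 1.2-fold (1.06 to 1.35), and Mki67 1.08-fold lower (1.03 to 1.13). Among replication members Mcm5 was 1.32-fold higher (1.18 to 1.48) and Cdc6 1.45-fold higher (1.07 to 1.94), while Mcm3 was 1.16-fold lower (1.02 to 1.32). Differences of this size lie inside the range of all kept genes, whose 5th and 95th percentiles were -0.38 and 0.44 on the log2 scale. Beside them, the 12 leukocyte markers were all lower in stroma labelled knockout, at a sum of 58.6 RPKM against 129 RPKM in stroma control, and the 12 stromal markers summed to 577 RPKM against 394 RPKM. The 10 endothelial markers summed to 40.4 RPKM in stroma labelled knockout and 43.7 RPKM in stroma control. Their part in the stromal values was not tested. In the authors' deposited table none of the 38 members was marked significant in either compartment. Of all genes, 0.405% were so marked in luminal epithelium and 0.0215% in stroma, so the absence of marked members lies near the background. The smallest q-values in the authors' deposited table were 0.360 for Plk1 in luminal epithelium and 0.433 for Cdkn1a in stroma, and 11 members were not tested there in luminal epithelium.

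**Figure D3:**
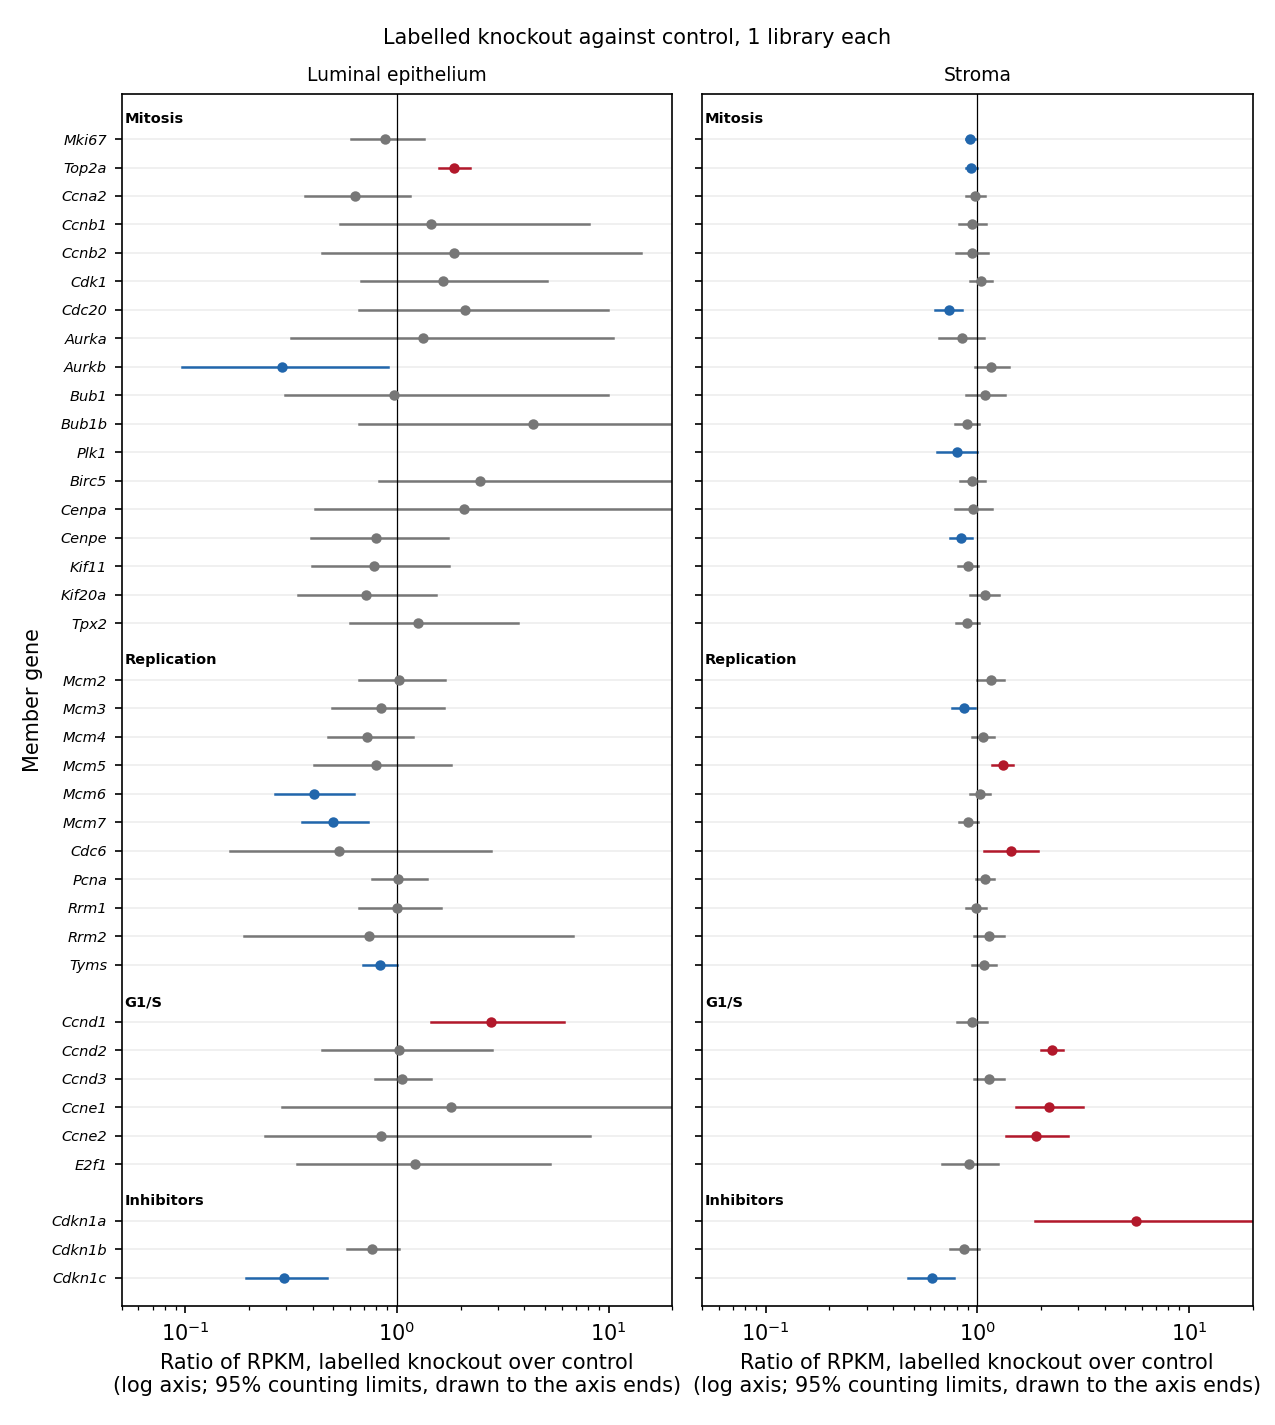
Ratio of labelled knockout to control for each member in luminal epithelium and in stroma, on a logarithmic axis, with approximate 95% counting limits as bars (Plk1 and Cdkn1a are not drawn in epithelium, where the control is listed at 0). Bars are far wider in epithelium, and limits lie wholly above 1 for Top2a and Ccnd1 in epithelium and for Mcm5, Cdc6, Ccnd2, Ccne1, Ccne2 and Cdkn1a in stroma.

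Wider lists of the same pathways, also chosen with earlier results of these data known, were examined for whether the members stood alone. Of 40 other genes of mitosis, 39 were lower in epithelium than in stroma on the log2(RPKM + 1) scale under each label, with medians of -0.99 under the knockout label and -1.01 under the control label. At least 2-fold lower were 19 of the 40 under the knockout label and 22 under the control label, against 5.28% and 5.73% of all genes. Ube2c, a ubiquitin-conjugating enzyme of mitotic exit, had 1.15 and 1.99 RPKM in luminal epithelium labelled knockout and control, against 5.24 and 5.81 RPKM in stroma labelled knockout and control. The condensin subunit Smc4 had 0.981 and 1.08 RPKM in epithelium and 4.03 and 4.24 RPKM in stroma. Cks1b, a small subunit of cyclin-dependent kinase complexes, had 2.11 and 1.39 RPKM in epithelium and 4.19 and 4.71 RPKM in stroma. Cks2, its relative, had 2.57 and 0.971 RPKM in epithelium and 4.19 and 4.20 RPKM in stroma. These are the 4 most abundant genes of that list, and each was lower in both epithelial libraries than in either stromal one.

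Of 40 other genes of replication, 8 were at least 2-fold lower and 1 at least 2-fold higher in epithelium under each label. Their medians were -0.72 under the knockout label and -0.71 under the control label. Of all genes, 5.28% and 5.73% were at least 2-fold lower and 7.95% and 7.31% higher under these labels. Uhrf1, which guides DNA methylation after replication, had 0.449 and 0.289 RPKM in luminal epithelium labelled knockout and control, against 4.80 and 3.64 RPKM in stroma labelled knockout and control. Its partner Dnmt1, the maintenance DNA methyltransferase, had 1.91 and 1.75 RPKM in epithelium and 3.99 and 4.14 RPKM in stroma. Rpa3, the smallest subunit of the complex that coats single-stranded DNA, was the higher gene, with 5.55 and 6.89 RPKM in epithelium and 2.25 and 1.75 RPKM in stroma. Like Tyms it had more RNA per length in epithelium, but under the knockout label its log2 difference of 1.01 was 0.54, 0.73 and 0.69 under the 3 other scalings, short of 2-fold in each. Rfc2, a subunit of the loader of Pcna, had 2.22 and 1.54 RPKM in epithelium and 2.64 and 3.01 RPKM in stroma.

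The other lists held no common direction as deposited, and their counts can be read against 7.95% and 7.31% of all genes at least 2-fold higher and 5.28% and 5.73% lower in epithelium under the knockout and control labels. Of 23 further genes of the G1 to S step and the retinoblastoma family, 2 were at least 2-fold higher and 1 lower in epithelium under each label, with medians of -0.14 under the knockout label and -0.06 under the control label. Ccng1, an atypical cyclin induced by p53, was the most abundant, with 25.2 and 32.6 RPKM in luminal epithelium labelled knockout and control, against 3.73 and 2.42 RPKM in stroma labelled knockout and control. Its relative Ccng2, known from cells that leave the cycle, had 5.5 and 7.41 RPKM in epithelium and 1.89 and 2.31 RPKM in stroma. Its log2 difference under the knockout label was 1.17 as deposited and 0.73, 0.90 and 0.85 under the 3 other scalings, short of 2-fold in each, and 0.92 in the controls with upper quartiles set equal. Cdk4, the partner of D-type cyclins, had 10.6 and 10.3 RPKM in epithelium and 20.9 and 18.1 RPKM in stroma. Tfdp1, the dimer partner of E2F factors, had 3.40 and 3.18 RPKM in epithelium and 6.34 and 4.63 RPKM in stroma. Of 14 further inhibitors and checkpoint genes, 3 were at least 2-fold higher and 2 lower in epithelium under each label. Btg2 and Btg1, antiproliferative genes, had 10.6 and 11.6 RPKM and 7.12 and 10.6 RPKM in epithelium labelled knockout and control, against 2.85 and 2.08 RPKM and 2.43 and 3.05 RPKM in stroma labelled knockout and control. Under the knockout label the log2 difference of Btg1 was 1.24 as deposited and 0.77, 0.95 and 0.92 under the 3 other scalings, short of 2-fold in each. Trp53, which encodes p53, had 2.65 and 2.42 RPKM in epithelium and 6.27 and 5.60 RPKM in stroma. Gadd45g, a stress-induced growth arrest gene, had 4.89 RPKM in stroma labelled knockout and 0.904 RPKM in stroma control, 5.40-fold higher (3.74 to 7.89), and had 5.23 RPKM in epithelium labelled knockout and 8.26 RPKM in epithelium control. Between genotype labels within a compartment, no gene of the other mitosis, replication and G1 to S lists was at least 2-fold different on the log2(RPKM + 1) scale. Genes under 1 RPKM in both libraries could not be. The inhibitor list had 1 such gene in each compartment, Gadd45a in epithelium and Gadd45g in stroma, both higher in the library labelled knockout. For these comparisons of genotype labels, 1.82% of all genes were at least 2-fold higher and 0.813% lower in epithelium labelled knockout. In stroma labelled knockout the shares were 0.499% and 0.547%.

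Histone genes of the replication-dependent clusters, whose RNA cells make in S phase and whose transcripts lack poly(A) tails, could be measured because these were total RNA libraries. Of 68 such entries, 42 were at least 2-fold lower in epithelium than in stroma under the knockout label and 52 under the control label, against 5.28% and 5.73% of all genes, with medians of -1.44 and -1.92 on the log2(RPKM + 1) scale. Copies within a histone class are nearly identical and reads can be split between them, so classes are given as sums. H2A genes summed to 76.9 and 63.9 RPKM in luminal epithelium labelled knockout and control, against 295 and 351 RPKM in stroma labelled knockout and control. H3 genes summed to 68.2 and 65.2 RPKM in epithelium and 269 and 341 RPKM in stroma. H1, H2A, H2B and H3 were lower in epithelium by 3.40-fold to 3.95-fold under the knockout label and by 4.14-fold to 5.49-fold under the control label. H4 genes summed to 423 and 230 RPKM in epithelium and 737 and 739 RPKM in stroma, 1.74-fold and 3.22-fold lower. H4 was thus the class nearest to stroma, and between epithelial libraries it was 1.84-fold higher in the library labelled knockout, against 1.05-fold to 1.39-fold for the other 4 classes. Hist1h4d, the most abundant entry, had 82.7 and 43.1 RPKM in epithelium labelled knockout and control, against 120 and 108 RPKM in stroma labelled knockout and control. Hist1h4a, Hist1h4c and Hist1h4f followed it in mean level, all of the H4 class. In epithelium labelled knockout 6 of the 68 entries were at least 2-fold higher than in control and none lower, and 55 were higher and 12 lower in direction. All 6 were among the 58 kept entries, against 5.03% of all kept genes higher and 1.99% lower. Without a minimum level the shares of all genes were 1.82% and 0.813%. In stroma no entry differed by 2-fold, and 49 were lower and 19 higher in the library labelled knockout.

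**Figure D4:**
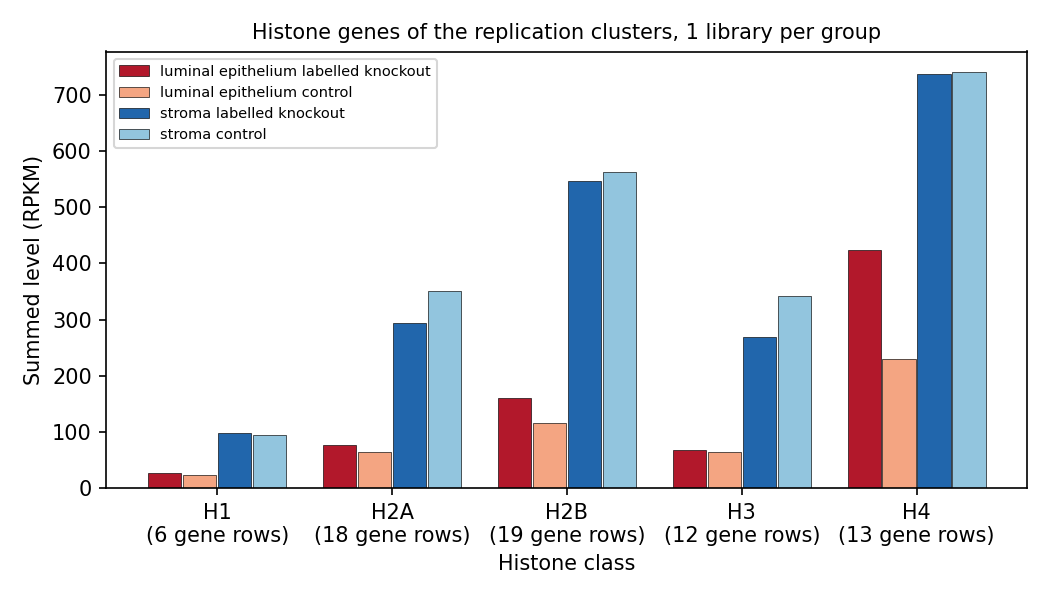
Summed RPKM of replication-dependent histone genes by class in each of the 4 libraries, on an axis that starts at 0. Each class is lower in both epithelial libraries than in both stromal ones, and H4 is at 423 RPKM in epithelium labelled knockout and 230 RPKM in epithelium control.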

How the data were processed

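The authors deposited 1 table per compartment with RPKM for each library, and with their own p-values and q-values for labelled knockout against control, per the file headers. The submitters' processing notes name build mm9 and the tools Cufflinks 2.0.2, TopHat2 2.0.5, TopHat and CASAVA 1.8.2. What each tool did, any filters and whether counting used strand are not given in the sources used here. Per the labels' protocols, libraries came from total RNA after ribosomal RNA depletion with a stranded kit. The tables were normalized separately, so levels set across compartments may carry an offset.

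Differences were taken as log2((first + 1)/(second + 1)), which understates those of low genes. A gene was kept where the pair averaged 1 RPKM or more, and 2-fold on that scale was the size counted. Ratios used RPKM without a pseudocount. With 1 library per group there was no test. Depth was estimated from the steps of low values, RPKM times transcript length less 200 bases, with lengths from GENCODE vM21 matched by RefSeq identifier for all 38 members. Between 60.0% and 61.6% of low values lay within 0.2 of a whole read number, to which the step was itself fitted. Limits are 95% Clopper-Pearson limits on estimated reads. Loci are from the deposited tables, with starts raised by 1 because 2813 of 20768 loci matched annotated lengths when counted from 0, against 458 from 1. The loci of 7 members overlap that of another gene. Members and lists were chosen with earlier results of these data known. All members are named, and of each wider list the 4 genes with the highest mean RPKM over the libraries. Other genes named were chosen after their values were seen. The steps were tested on simulated data. Alternatives concerned the pseudocount, minimum level, scaling, fold and counting limits. Scripts ran in Python 3.11.15 with matplotlib 3.10.9, scipy 1.17.1, pandas 2.3.3 and numpy 2.4.6.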

Additional observations from a re-analysis of the deposited data

Results flagged for a closer look

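Top2a went opposite ways between genotype labels in the 2 compartments, with a ratio of labelled knockout to control of 1.86 in luminal epithelium and 0.938 in stroma, and counting limits on different sides of 1. With 1 library per group this difference between compartments was not tested.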

How the results depend on the processing

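Rescaling shifted the log2 median over kept genes by -0.45 with upper quartiles set equal, -0.27 without the 50 most abundant genes and -0.32 with the median set to 0 for epithelium against stroma labelled knockout, and by -0.40, -0.16 and -0.29 for the controls. In epithelium labelled knockout against control the shifts were -0.12, -0.18 and -0.10. Recounts were set against counts among kept members (lower in epithelium than in stroma, 22 under the knockout label and 20 under the control label). Of 88, 76 were equal to or within 1.5 times that count and 12 moved. A count of 0 that stayed at 0 is among the 76. The count as reported was 0 in both directions between stromal libraries and for higher in epithelium labelled knockout than in control. It was also 0 for higher in epithelium than in stroma under the knockout label. The 76 therefore do not measure how well the larger counts held. The count higher in epithelium than stroma in the controls was 0 in place of 1 under each of these 3 scalings. At 1.5-fold it was 1 in place of 0 for epithelium labelled knockout against control (Top2a), for epithelium against stroma labelled knockout (Tyms) and for stroma labelled knockout against control (Ccnd2), and 1 in the last with a pseudocount of 0.1 RPKM. The count lower in epithelium labelled knockout, 1 as reported, was 2 with that pseudocount, 3 at 1.5-fold and 0 with a minimum of 5 RPKM. That minimum kept few members: the count lower in epithelium than in stroma was 1 of 2 kept under the knockout label and 0 of 3 kept under the control label, the mitosis median under the knockout label became 0.058 (Top2a alone) and the replication median in the controls 0.052 (2 kept). Without the 7 members with overlapping loci, chosen after seeing the data, 17 and 16 were lower in epithelium under the knockout and control labels. The shallow epithelial control limits its low members, where 1 read on 1 kb is 0.157 RPKM. No paired analysis was possible because each group has 1 library and the labels give no replicate numbers.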
